A study of Mus musculus with 7 samples.

Results

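The nuclear-encoded subunits of the mitochondrial respiratory chain and ATP synthase were examined in transplanted mouse mammary tumours of 2 lines, Met1 and DB7. A gene was a member where a probe set of the array carried its symbol alone and the symbol stood in a list of 54 subunit genes. Of these, 52 were matched, by 101 of the 22626 non-control probe sets, among 12393 genes with a symbol of their own on the array. Cox7b was not analysed here, and Atp5f1, which the annotation lists under its current symbol Atp5pb, is described apart. Total RNA of tumours had been measured on 1-colour Affymetrix arrays, 3 for Met1 and 4 for DB7. The deposited values are treated as log2 probe set summaries.

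Both lines go back to mammary tumours of mice with a polyoma middle T transgene. As background, Met1 carries the unaltered oncoprotein and metastasises readily, whereas the middle T of DB7 is impaired in binding PI3-kinase and the line seldom metastasises. Each group is therefore 1 tumour line, and any difference between the lines, including the form of the transgene, is part of the comparison. The sample labels call all 7 samples transplant tumours, whereas the series' design text speaks of tumours of outcrossed first-generation animals, and the sample labels were followed here. The sources used here give neither host strain, age nor treatment, and do not say that the arrays of a line stand for different animals. What the p-values measure is therefore the spread among these 7 arrays, part of which may be technical.

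Arrays of a line correlated at 0.994 to 0.996 in Met1 and 0.986 to 0.992 in DB7 over all probe sets, and arrays of different lines at 0.967 to 0.972. Of 8 epithelial markers, 6 lay above the array median in all 7 arrays, among them Epcam, Krt8 and Krt18 at 11.35 to 12.73, while Krt19 did so in 2 arrays and Cldn7 only in the 3 Met1 arrays. The mean of the 8 was 9.52 to 9.89 in Met1 and 9.43 to 9.57 in DB7. Of the 7 that were tested, 4 were lower in Met1, the direction of the called subunit genes other than Atp5h, and 1 was higher (limma). Krt18 was at 11.35 to 11.75 in Met1 and 12.45 to 12.73 in DB7, and Cldn7 at 9.65 to 10.26 and 5.29 to 5.76. The part of epithelial content in the members' values was not tested. Of 15 skeletal and cardiac muscle markers and 6 brown fat markers, none lay above the array median in all 7 arrays. DB7 1 and DB7 4 stood apart from the other DB7 arrays in B cell and stromal genes. For 6 B cell markers their mean levels were 7.18 and 7.51, and no other array exceeded 6.05. For 8 fibroblast markers DB7 1 reached 9.71 and DB7 4 reached 9.09, DB7 2 and DB7 3 were lower (8.47 and 8.04), and Met1 ranged from 8.92 to 9.63. In bulk tumour RNA, fewer cells of a type and less RNA per cell cannot be told apart.

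The respiratory chain moves electrons from NADH, through complex I, and from succinate, through complex II, by way of ubiquinone to complex III, cytochrome c and complex IV, where oxygen is reduced. Complexes I, III and IV pump protons, and ATP synthase, complex V, uses the gradient to make ATP. All subunits of complex II and most of those of the other complexes are made from nuclear genes, while a core set of membrane subunits comes from the mitochondrial genome. PGC-1 coactivators and the transcription factors NRF1, GABP and YY1 are known regulators of many of the nuclear genes.

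A large minority of the subunit genes was lower in Met1 than in DB7, by modest amounts, and a single one, Atp5h, was higher. Of the 52 members, 51 passed the intensity filter, which asked for a level over the median of the array in 3 arrays or more. Of these, 23 were lower and 1 higher in Met1 (limma, Benjamini-Hochberg adjusted p under 0.05), where 17.9% of the 7482 tested genes were lower and 13.0% higher. Met1 minus DB7 was below 0 for 46 of the 51, against 4293 of all tested genes. The median difference of the members was -0.23 on the log2 scale, against -0.04 over all tested genes, and the quartiles of the members were -0.45 and -0.12. The untested member, Cox7c of complex IV, had probe sets that lay below the array median in all 7 arrays. At the level of probe sets, 39 of 87 tested were lower and 2 higher, and both of the latter belong to Atp5h (background 17.6% and 13.4%). The number of member genes called lower was 14 without Met1 2 and 15 without Met1 3, with 46 members below 0 in both of these fits. The share of all tested genes called lower was also smaller in these 2 fits, at 11.3% and 11.5%.

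**Figure D1:**
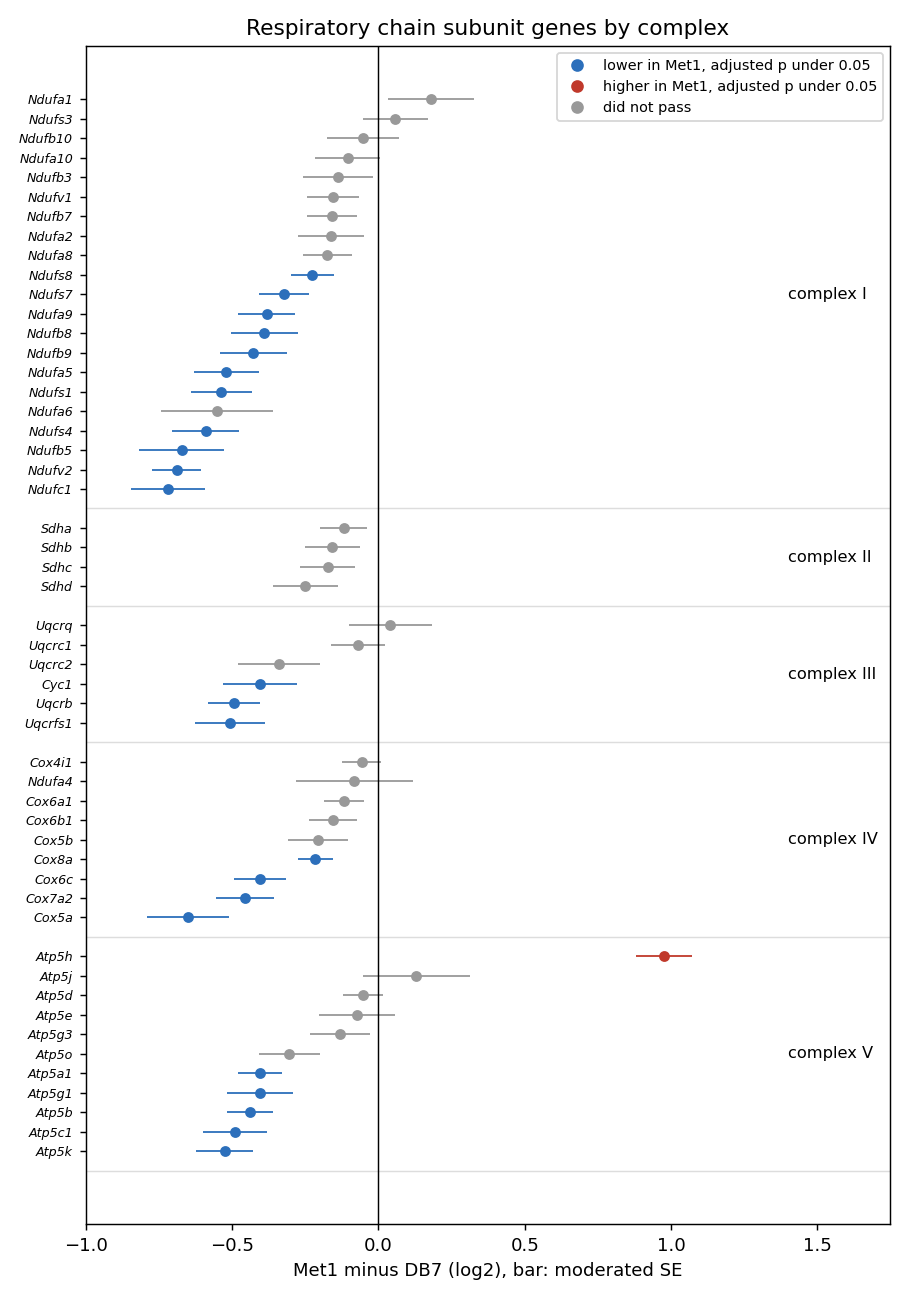
Met1 minus DB7 (log2, horizontal axis) for the 51 tested member genes, grouped by complex, with the moderated standard error as bar and colour for limma's call. Most points lie left of 0, and Atp5h in complex V stands alone at 0.98.

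In complexes I, III, IV and V the share of members lower was similar, at 44.4% to 52.4%, where 17.9% of all tested genes were lower. Complex II, with only 4 genes, had 0 lower, and the difference between complexes was not tested. Complex I had 11 of 21 members lower (median difference -0.32), complex III 3 of 6 (median -0.37), complex IV 4 of 9 (median -0.21) and complex V 5 of 11, with Atp5h higher (median -0.30). In complex II, 0 of 4 genes passed in limma and all 4 differences lay below 0, with a median of -0.17. Only the single higher call in complex V went against the direction of its complex.

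The arrays of the lines were apart in the median over member genes. Taken as the median over the 51 members of the value minus the DB7 mean, the Met1 arrays lay at -0.22, -0.29 and -0.26. The DB7 arrays lay at -0.09, 0.14, 0.02 and -0.08 for DB7 1 to DB7 4. For complexes I, III, IV and V no Met1 array reached a DB7 array, while for complex II Met1 1, at -0.07, lay among the DB7 arrays, whose lowest was at -0.09. DB7 2 held the highest DB7 value for 31 of the 51 members, and DB7 1 or DB7 4 the lowest for 22 and 21. These last arrays were also the DB7 arrays with the highest fibroblast and B cell marker means, and the part of those cells in the members' values was not tested. Without both arrays, 26 members were lower and 1 higher, where 17.6% of all tested genes were lower and 14.3% higher. The spread was wider in DB7, with a median SD of 0.18 over the members against 0.07 in Met1. Over all tested probe sets it was also wider in DB7 (0.14 against 0.09).

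**Figure D2:**
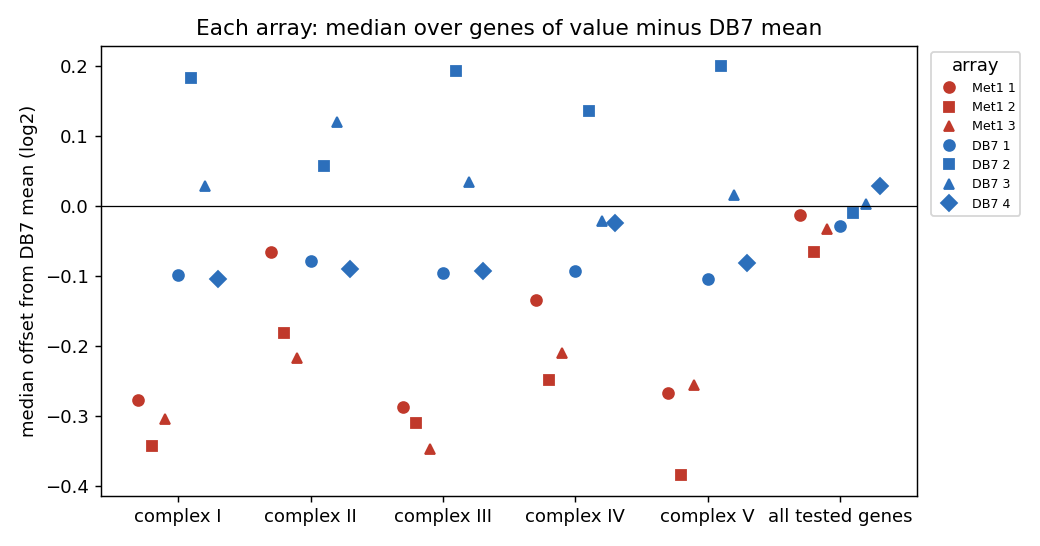
For each array, the median over the tested genes of a complex of the value minus that gene's DB7 mean (log2, vertical axis), beside the same over all tested genes. Met1 arrays (red) lie below all DB7 arrays (blue) in complexes I, III, IV and V, and DB7 2 (blue square) is highest in all of these.

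In complex I, the NADH-oxidising head, or N module, is described first. Ndufv2, an iron-sulfur subunit next to the NADH site, measured 9.58, 9.61 and 9.66 in Met1 and 10.28, 10.42, 10.34 and 10.20 in DB7. All Met1 values lay below all DB7 values, and the gene was 1.61-fold lower in Met1 (difference -0.69, SE 0.08; limma, adjusted p = 0.000392). Its other tested probe sets differed by -0.36 and -0.46 and passed as well. Ndufs1, the largest subunit of the complex and a carrier of iron-sulfur clusters, measured 8.54, 8.52 and 8.53 in Met1 and 8.92, 9.30, 9.07 and 8.96 in DB7. The tight Met1 values were 1.45-fold below the DB7 mean (difference -0.54, SE 0.10; limma, adjusted p = 0.00462). Ndufs4, an accessory subunit that holds the head in place, measured 7.99, 7.91 and 7.96 in Met1 and 8.42, 8.81, 8.60 and 8.34 in DB7. It was 1.51-fold lower (SE of the log2 difference 0.11; limma, adjusted p = 0.00481), again without overlap of the lines. Ndufv1, the flavoprotein that binds NADH and partners Ndufv2, showed no such difference: its brightest probe set differed by -0.16 (SE 0.09) and the others by 0.07 and -0.06, and none passed in limma. In the module as a whole 3 of 6 genes were lower, where 17.9% of all tested genes were. Ndufa6, which did not pass (-0.55, SE 0.19; limma, adjusted p = 0.0566), still had all its Met1 values below its DB7 values. Its DB7 values ranged from 9.40 to 10.28. Over the 51 members, 27 had every Met1 value below every DB7 value and 1 the reverse, where 23.0% and 16.2% of all tested genes did.

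In the Q module, where electrons reach ubiquinone, 4 of 5 members were lower, with Ndufs3 the exception at 0.06 (SE 0.11). Over all tested genes 17.9% were lower, and the difference between the modules of complex I was not tested. Ndufa5, a small accessory subunit, was 1.43-fold lower, and its second probe set differed by -0.80. Ndufs7 and Ndufs8, which carry the last iron-sulfur clusters before ubiquinone, were 1.25-fold and 1.17-fold lower. The 6 probe sets of Ndufs8 all lay below 0, from -0.42 to -0.11, and 3 of them passed in limma. Ndufa9, which lies near the ubiquinone channel, was 1.30-fold lower.

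The membrane arm was mixed. Ndufc1, a small accessory subunit of the membrane arm, gave the largest decrease of the 51 members. It measured 10.11, 9.82 and 10.14 in Met1 and 10.65, 10.96, 10.84 and 10.52 in DB7. The lines did not overlap, and the gene was 1.65-fold lower in Met1 (difference -0.72, SE 0.13; limma, adjusted p = 0.003), with -0.73 at its other probe set. The remaining 3 members of the proximal arm did not pass: Ndufa8 and Ndufa10 differed by -0.17 and -0.10, and Ndufa1, whose gene lies on the X chromosome, by 0.18 (SE 0.15). Of the 6 distal arm members 3 were lower, where 17.9% of all tested genes were. These were Ndufb5 by 1.59-fold, Ndufb9 by 1.34-fold and Ndufb8 by 1.31-fold. The other tested probe set of Ndufb9 differed by -0.19 and did not pass. Ndufb7 did not pass by its brighter probe set (-0.16) and passed by its other one (-0.34), while Ndufb3 and Ndufb10 differed by -0.14 and -0.05.

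Succinate dehydrogenase, complex II, is also an enzyme of the citric acid cycle. Sdha, its flavoprotein subunit, measured 9.59, 9.54 and 9.48 in Met1 and 9.61, 9.67, 9.75 and 9.59 in DB7, a difference of -0.12 (SE 0.08; limma, adjusted p = 0.3). The iron-sulfur subunit gene Sdhb differed by -0.16 (SE 0.09), and the membrane anchors Sdhc and Sdhd by -0.17 (SE 0.09) and -0.25 (SE 0.11). A dimmer probe set of Sdhc passed narrowly at -0.28 (limma, adjusted p = 0.0477). The lines overlapped in Sdha, Sdhb and the brighter probe set of Sdhc, and not in Sdhd.

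In complex III, Uqcrb, Uqcrfs1 and Cyc1 were lower and the other 3 tested members did not pass. Uqcrb, a small subunit at the ubiquinone-binding side, measured 12.07, 12.09 and 12.27 in Met1 and 12.66, 12.78, 12.64 and 12.47 in DB7. It was 1.41-fold lower (difference -0.49, SE 0.09; limma, adjusted p = 0.00319). Uqcrfs1, the Rieske iron-sulfur protein, measured 9.88, 9.95 and 10.18 in Met1 and 10.38, 10.76, 10.54 and 10.38 in DB7, 1.42-fold lower (SE 0.12; limma, adjusted p = 0.0116). That call was narrowly lost without Met1 1 or Met1 2 (adjusted p = 0.0542 and 0.0522). Cyc1, cytochrome c1, measured 10.06, 10.08 and 9.88 against 10.11, 10.47, 10.43 and 10.64 (difference -0.40, SE 0.13; limma, adjusted p = 0.0388). DB7 1 came close to the Met1 values, and Cyc1 did not pass when any single array other than DB7 1 was omitted (adjusted p up to 0.146), nor with each array centred on its median (adjusted p = 0.0621). The core proteins Uqcrc1 and Uqcrc2 differed by -0.07 and -0.34 and Uqcrq by 0.04, and none of these passed.

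Among complex IV genes the lower ones were Cox5a, Cox7a2, Cox6c and Cox8a. Cox5a, a matrix-side subunit, measured 10.59, 10.98 and 10.69 in Met1 and 11.39, 11.73, 11.25 and 11.24 in DB7. It was 1.57-fold lower (difference -0.65, SE 0.14; limma, adjusted p = 0.00797), with -0.38 and -0.45 at its other probe sets. The probe set at -0.38 did not pass (limma, adjusted p = 0.094). Cox7a2, the broadly expressed form of subunit VIIa, measured 11.62, 11.51 and 11.57 against 11.91, 12.27, 12.04 and 11.88 (SE 0.10; limma, adjusted p = 0.00827). It was thus 1.37-fold lower with no overlap, and its second probe set differed by -0.52. Cox6c, a single-span membrane subunit, measured 10.89, 11.04 and 11.02 against 11.23, 11.52, 11.40 and 11.40, 1.32-fold lower (SE 0.09; limma, adjusted p = 0.00851). Its other probe set differed by -0.28 without passing (limma, adjusted p = 0.104). Cox8a, the smallest kind of subunit in the complex, differed little but evenly, at 11.75, 11.72 and 11.79 against 11.98, 11.98, 11.94 and 11.97 (-0.22, SE 0.06; limma, adjusted p = 0.0258). Its call was lost without any single Met1 array (adjusted p = 0.0794, 0.0996 and 0.0563) and with median centring (adjusted p = 0.0656), and its other bright probe set differed by -0.13 without passing. Cox4i1, the large subunit that is often used as a mitochondrial marker, differed by -0.06 (SE 0.07), and Cox6a1, Cox6b1 and Cox5b by -0.12, -0.16 and -0.21. A dimmer probe set of Cox5b passed at -0.31 (limma, adjusted p = 0.0277). Ndufa4, whose protein was first assigned to complex I and is now placed in complex IV, differed by -0.08 with wide DB7 values of 10.35 to 11.28.

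**Figure D3:**
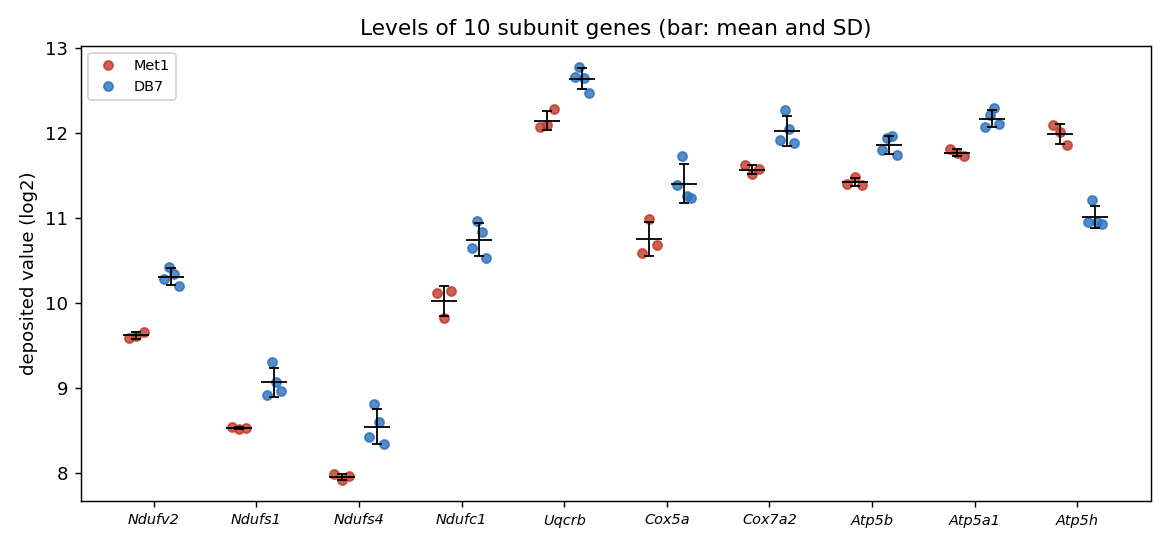
Deposited values (log2, vertical axis) of 10 named subunit genes in the 3 Met1 (red) and 4 DB7 (blue) arrays, with the mean and SD as bars. The lines do not overlap in any of the 10, Met1 being lower in 9 and higher in Atp5h.

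ATP synthase held decreases in its head and membrane part and the single increase. In the catalytic head, Atp5b, the beta subunit that carries the catalytic sites, measured 11.40, 11.48 and 11.39 in Met1 and 11.80, 11.94, 11.96 and 11.74 in DB7 (1.36-fold lower; SE 0.08; limma, adjusted p = 0.0032). Atp5a1, the alpha subunit, measured 11.81, 11.76 and 11.73 against 12.06, 12.21, 12.29 and 12.11 (1.32-fold lower; SE 0.07; limma, adjusted p = 0.00386). Neither gene's lines overlapped, and Atp5c1, the gamma subunit that turns within the head, was 1.41-fold lower. The delta and epsilon subunits Atp5d and Atp5e of the central stalk differed by -0.05 and -0.07 and did not pass. In the membrane part, Atp5k, the dimer-stabilising subunit e, measured 10.48, 10.68 and 10.83 against 11.14, 11.24, 11.26 and 11.10 (1.44-fold lower; SE 0.10; limma, adjusted p = 0.00392), and all 3 of its probe sets passed.

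Atp5g1 and Atp5g3 encode the same mature c subunit of the rotor ring with different import sequences. Atp5g1 measured 10.22, 10.15 and 10.19 in Met1 and 10.34, 10.83, 10.61 and 10.59 in DB7 (difference -0.40, SE 0.11; limma, adjusted p = 0.0252). Atp5g3 measured 11.88, 11.76 and 11.84 against 11.74, 12.19, 11.97 and 11.93 (-0.13, SE 0.10; limma, adjusted p = 0.38). The lines overlapped in Atp5g3 and not in Atp5g1, but the difference between the paralogs was not tested. The call of Atp5g1 was lost without any single Met1 array or DB7 3 (adjusted p = 0.0658, 0.0909, 0.0755 and 0.0575). The third c subunit gene, Atp5g2, not a member, was 1.33-fold lower (-0.41, SE 0.09; limma, adjusted p = 0.01), a call lost without Met1 2 (adjusted p = 0.051).

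The peripheral stalk holds the catalytic head still against the rotor, and its genes went in both directions. Atp5h, its subunit d, measured 12.09, 12.01 and 11.85 in Met1 and 10.95, 11.21, 10.95 and 10.93 in DB7. Every Met1 value lay well above every DB7 value, and the gene was 1.97-fold higher (difference 0.98, SE 0.10; limma, adjusted p = 0.000132). The second probe set gave 11.68, 11.57 and 11.41 against 10.28, 10.85, 10.58 and 10.67, a difference of 0.96. The adjusted p of Atp5h was between 0.000172 and 0.00157 in the 7 fits that left out an array. Its partner in the stalk, subunit b, is encoded by the listed gene Atp5f1, annotated as Atp5pb. It measured 9.73, 9.82 and 9.75 against 10.45, 10.79, 10.66 and 10.50, a difference of -0.83 (limma, adjusted p = 0.000368). The SE of that difference was 0.10 in the fit without the intensity filter, and the other probe set differed by -0.53. Atp5o, which joins the stalk to the head, differed by -0.30 (SE 0.10; limma, adjusted p = 0.0534) without overlap of the lines, and Atp5j, the coupling factor 6 subunit, by 0.13 with overlap.

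The genes that lie next to Atp5h differed in both directions, with a change of sign close beside it. The order of genes was taken from the RefSeq table of assembly GRCm38.p6, the deposited table naming no build. Among the 10 tested genes on the side where Mrpl58 is its nearest neighbour, 7 were higher in Met1 and 0 lower in limma, Mrpl58, a mitochondrial ribosomal protein, by 1.19 and Slc9a3r1 by 1.43. On the other side Kctd2 was higher by 1.00, and of the next 9 genes 7 were lower, among them Nup85 at -1.44, Jpt1 at -1.23 and Mrps7, another mitochondrial ribosomal protein, at -1.05. The 8 neighbours higher in Met1 and the 7 lower left a median of 0.01 over all 20. Over all tested genes 13.0% were higher and 17.9% lower. The 20 neighbours were taken by position around the member called higher, and those named here were chosen after their values were seen. The part of the neighbours in the value of Atp5h was not tested.

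**Figure D4:**
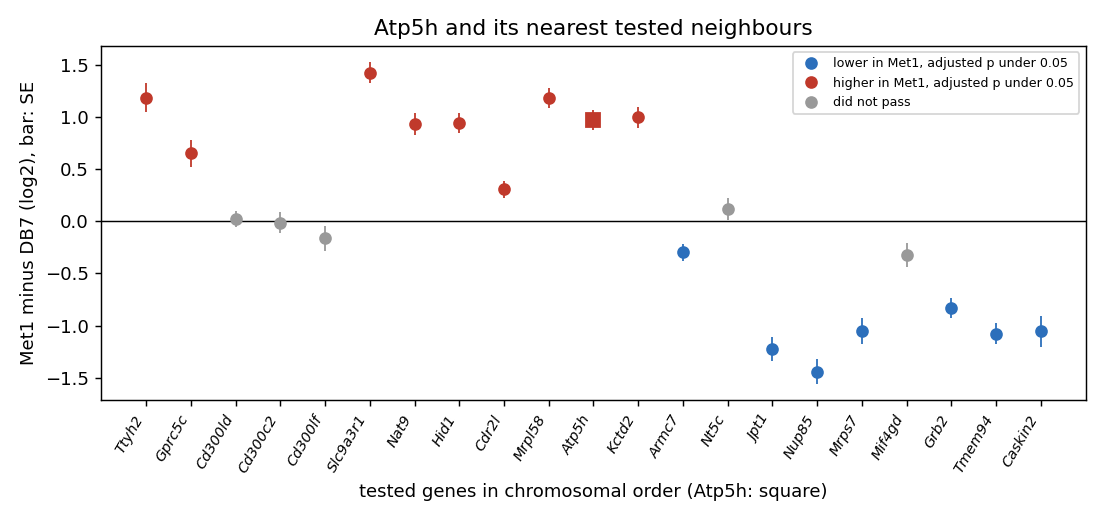
Met1 minus DB7 (log2, vertical axis, with SE) for Atp5h (square) and the 10 nearest tested genes on each side, in chromosomal order. Values are near or above 0 up to Kctd2 (1.00) and reach -1.44 at Nup85 on the other side.

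Around the members that were lower, the genes nearby were examined in the same way. The median over up to 20 nearest tested genes lay between -0.30 and 0.08 for the 23 members lower in Met1, with a middle value of -0.05. For the 27 members that did not pass it lay between -0.26 and 0.13, with a middle value of -0.06. The difference between these sets was not tested. Among the lower members Ndufc1 and Ndufb5 had the lowest medians, each with 10 of 20 neighbours lower, where 17.9% of all tested genes were. Ndufc1 and Ndufb5 themselves differed by -0.72 and -0.67. Around Cox8a the neighbours' median, -0.23, was as low as the member's own difference of -0.22. Around Ndufv2 the median was 0.01 and 2 of 20 neighbours were lower.

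Promoters of the members were searched for letters of known regulators in RefSeq sequence (GRCm38.p6, from 250 bases before to 50 bases after the transcription start), which was at hand for 41 of the 52 members. The NRF1 letters GCGCATGC, read on both strands, occurred in 6 of the 41 (14.6%), against 6.34% of the tested genes and 3.05% of all genes in the table. The ETS letters ACTTCCGG, which GABP can bind, occurred in 3 (7.32%, against 9.52% of the tested genes and 4.31% of all). The YY1 letters AAGATGG, which include an ATG triplet, occurred in 7 (17.1%, against 9.24% and 7.28%). A match describes the letters only and says nothing of binding.

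Matches were not spread alike over the members. Of the 17 members lower in Met1 with a promoter in the table, 1 held the NRF1 letters and 5 the YY1 letters, while of the 22 that did not pass, 5 held the NRF1 letters and 1 the YY1 letters, a difference that was not tested. The single lower member with NRF1 letters was Atp5k, shown here beside Sdhb, which holds them and did not pass, and Atp5h, which was higher in Met1 and holds the ETS letters. Each line gives the 100 bases before the start on the gene's own strand, 5′ to 3′, with the matched letters in capitals. They lie at chr5:108434400-108434499 on the minus strand (Atp5k), chr4:140961171-140961270 on the plus strand (Sdhb) and chr11:115419920-115420019 on the minus strand (Atp5h). In Atp5k the letters overlap with themselves on the opposite strand and so match both strands at 1 place, while Sdhb has them on the opposite strand only.
Atp5k: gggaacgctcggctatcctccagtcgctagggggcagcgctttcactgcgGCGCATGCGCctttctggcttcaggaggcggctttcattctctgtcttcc
Sdhb: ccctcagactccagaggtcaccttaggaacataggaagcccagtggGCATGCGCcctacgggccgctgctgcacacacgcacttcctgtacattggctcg
Atp5h: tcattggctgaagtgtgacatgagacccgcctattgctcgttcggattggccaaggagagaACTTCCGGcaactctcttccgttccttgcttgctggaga

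The 5 lower members with the YY1 letters were all of complex I, which held 11 of the 23 members lower in Met1. These 5 carried the letters just after the start, from 22 to 38 bases into the transcribed sequence. They are shown as 25 bases around the match, 5′ to 3′ on the gene's strand, so that the shared letters can be compared. The windows lie at chr13:114388045-114388069 (Ndufs4, minus strand), chr3:51408918-51408942 (Ndufc1, minus), chr19:44555393-44555417 (Ndufb8, minus), chr6:126849100-126849124 (Ndufa9, minus) and chr10:80249464-80249488 (Ndufs7, plus).
Ndufs4: tgcctacaggAAGATGGcggcggtc
Ndufc1: ctgcggaacAAGATGGcgccgtccg
Ndufb8: cgcggagaaggtgAAGATGGctgcc
Ndufa9: ttgtgggagAAGATGGcggccgccg
Ndufs7: gccgaggccAAGATGGcggcgctgg

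Other genes of the pathway were counted from further lists, and their difference from the members was not tested. Of 18 further nuclear subunit genes 5 were lower (27.8%) and 0 higher in limma (median -0.23), where 17.9% and 13.0% of all tested genes were. Besides Atp5g2 the lower genes included Uqcr10, a small subunit of complex III (1.28-fold), and Ndufv3 of complex I (1.25-fold). The other probe set of Uqcr10 differed by -0.07, and the mean of its probe sets did not pass (-0.21; limma, adjusted p = 0.0764). The calls of Uqcr10 and Ndufv3 were lost without Met1 2 (adjusted p = 0.0701 and 0.153), and that of Ndufv3 in 5 further fits without 1 array and with median centring (adjusted p = 0.0796). The only mitochondrially encoded subunit measured, ND5 of complex I, did not pass, with 11.91 ± 0.07 in Met1 and 11.89 ± 0.19 in DB7 (SD, n = 3 and 4; limma, adjusted p = 0.904).

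Of 22 assembly factor genes 3 were lower (13.6%) and 1 higher (4.55%), both shares below those of all tested genes (17.9% and 13.0%), with a median of -0.08. Uqcc1, a complex III assembly factor, was 1.46-fold lower but differed by -0.03 at its other probe set. Lrpprc, which stabilises mitochondrial messenger RNAs, was 1.20-fold lower, a call lost without any single Met1 array or DB7 4 (adjusted p up to 0.118) and with median centring (adjusted p = 0.052). Cox16, a complex IV assembly factor, was 1.39-fold higher. Its 20 neighbours had a median of 0.47, with 11 of them higher in Met1, and their part in its value was not tested.

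Import and membrane organisation genes were lower in 8 of 25 (32%) and higher in 0 (median -0.19). Over all tested genes 17.9% were lower and 13.0% higher. Timm17a and Timm17b, subunits of the inner membrane translocase, were 1.63-fold and 1.41-fold lower, and Chchd3, of the cristae-organising MICOS complex, 1.54-fold lower. Among 64 mitochondrial ribosome genes 23 were lower (35.9%) and 2 higher (3.1%), with a median of -0.14. The calls with the smallest p were Mrpl38 (2.10-fold higher), Mrps7 (2.07-fold lower), which is also a neighbour of Atp5h, and Mrps6 (1.55-fold lower). The other higher gene, Mrpl12, was 2.18-fold higher, and Mrpl51 was 1.90-fold lower. Around Mrpl12, 18 of the 20 nearest tested genes were higher in Met1 and 0 lower. Around Mrpl38, 7 of 20 were higher and 8 lower, and around Mrpl51, 0 of 20 were higher and 6 lower. The part of these neighbours in the values of the 3 genes was not tested.

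Of 12 tested regulators of mitochondrial biogenesis, 2 were lower and 2 higher in Met1, 16.7% in each direction and near the shares of all tested genes (17.9% lower and 13.0% higher). Yy1 was 1.82-fold higher (0.87, SE 0.14; limma, adjusted p = 0.00224), and Nrip1, a corepressor of oxidative genes, 1.46-fold higher. In the 20 genes nearest Yy1 the median was 0.22, with 9 higher and 0 lower. Polg, the mitochondrial DNA polymerase, was 1.25-fold lower, a call lost without Met1 2 or Met1 3 (adjusted p = 0.0696 and 0.0706), and Nrf1 1.20-fold lower (limma, adjusted p = 0.0458). Tfam, which packages mitochondrial DNA, and the GABP subunit gene Gabpb1 differed by -0.19 and -0.34 and did not pass.

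Ppargc1a, which encodes PGC-1alpha, lay below the intensity filter at all 5 of its probe sets, so that its folds are approximate, and it is described because its values were seen. Its brightest probe set read 5.24, 5.22 and 5.22 in Met1 and 6.15, 6.83, 6.53 and 6.26 in DB7. The Met1 arrays lay close together below all DB7 arrays, and DB7 2 was again the highest. In the fit without the filter the difference was -1.22 (SE 0.15; limma, adjusted p = 0.000639), and the other probe sets differed by -1.70, -1.15, -0.43 and -0.26, the last without passing. Cox7a1, the muscle form of subunit VIIa and likewise below the filter, differed by -0.62 (limma without the filter, adjusted p = 0.032), and Cox8b by 0.74 (adjusted p = 0.0162).

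**Figure D5:**
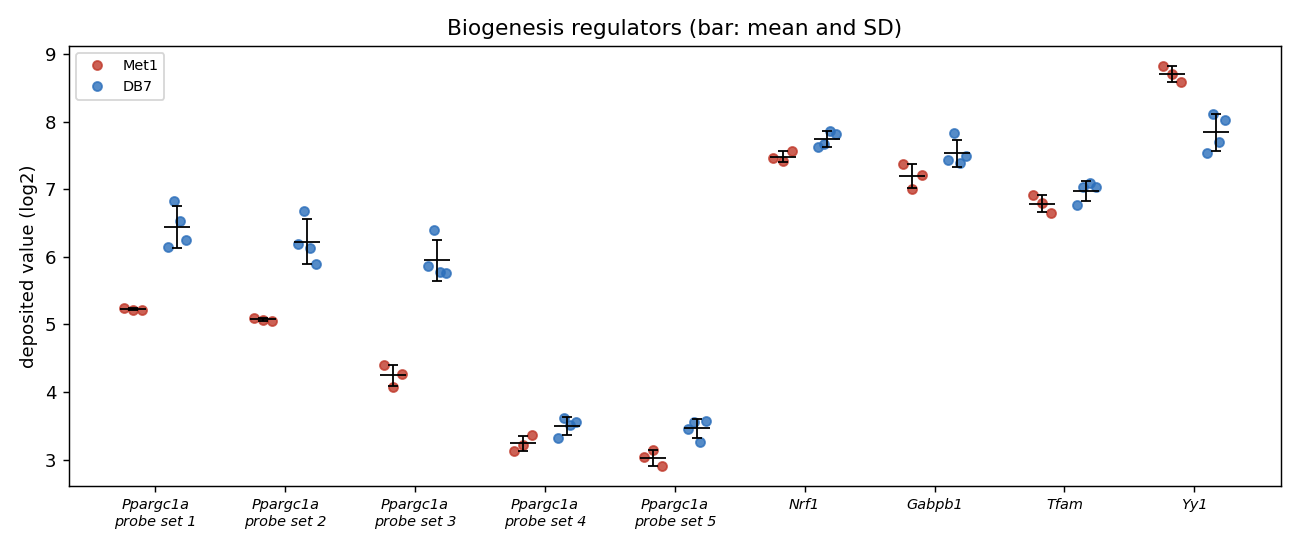
Deposited values (log2, vertical axis) of the 5 Ppargc1a probe sets and of Nrf1, Gabpb1, Tfam and Yy1 in the 3 Met1 (red) and 4 DB7 (blue) arrays, with mean and SD. The brightest Ppargc1a probe set lies at 5.22 to 5.24 in Met1 and 6.15 to 6.83 in DB7, and Yy1 is higher in Met1.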

How the data were processed

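The authors' deposited values for 7 arrays were taken as log2 probe set summaries from their range. RMA and MAS5 are named in the submitters' processing notes, without saying which gave the values. Versions and detection calls: not given in the sources used here. Such summaries can compress differences of dim and very bright probe sets, and precision is limited by the number of arrays. Of 22690 probe sets, 64 controls were left out. GEO's platform annotation gave 1 gene symbol to 20380, several to 691 and none to 1555. A probe set was tested where it lay above its array's median on at least 3 arrays, which kept 11704. The brightest tested probe set stood for its gene (7482 genes). The lines were set against each other by limma 3.58.1 (R 4.3.3; lmFit, then eBayes with an intensity trend; two-sided), with Benjamini-Hochberg adjustment over the 11704 probe sets. SE is the moderated standard error. The fit was tested on simulated data.

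The members and lists were chosen with earlier results of these data known. Named with full values are, in each complex, up to 4 called members with the smallest p, any called against its complex's majority, any called in both directions by its probe sets, and Atp5g1 and Atp5g3. In each other list up to 3 called genes are named. Other genes named (Atp5pb, Ppargc1a, Cox7a1, Cox8b, Nrf1, Tfam, Gabpb1, ND5, Mrpl12, Mrpl51 and the neighbours of Atp5h) were chosen after their values were seen. Protein sequences were not used here. Alternatives covered normalization, the filter, the variance model, the probe set per gene, left-out arrays, the place of Ndufa4 and the replicate number as a block.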

Additional observations from a re-analysis of the deposited data

Results flagged for a closer look

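The 4 DB7 values of each named or member gene, and of each complex's median, were examined for 1 value far from the rest by Dixon's ratio. This was so in 5 of 72 groups, where chance gives about 1 in 20. DB7 2 stood above the other DB7 arrays in Atp5h (11.21, others 10.93 to 10.95), Cox6a1 (11.97, others 11.89 to 11.90) and Ndufa2 (9.65, others 9.26 to 9.31). DB7 4 stood below them in Ndufs7 (9.46, others 9.58 to 9.60), and DB7 1 in Mrps7 (10.02, others 10.42 to 10.49).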

How the results depend on the processing

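Over all alternatives run, 14 to 27 member genes were lower and 1 was higher in Met1. The share of all tested genes that was lower ran from 10.7% to 21.8% over the same fits. With single arrays left out, 14 to 24 member genes were lower, where 11.3% to 19% of all tested genes were. In the same fits 20 to 43 member probe sets were lower, and no share over all probe sets was taken. The median difference of complex III ran from -0.47 to -0.30 in them. Using only probe sets without a suffix for shared sequence, which tests 35 member genes, gave 18 lower and 1 higher and a member median of -0.34. In that fit 18% of all tested genes were lower and 12.8% higher, with a median of -0.04. Without the arrays DB7 1 and DB7 4 the member median was -0.33 and that of complex III -0.47. Values of the named genes were on the same side of the threshold in 486 of 537 alternative fits, lost their call in 51 and changed sign in 0. Uqcrb lost its call (adjusted p = 0.0604) and Uqcc1 did (adjusted p = 0.848) with probe sets without such a suffix, where another probe set stands for the gene. Deviations of same-numbered arrays correlated at -0.17, -0.05 and 0.02, which cannot settle whether the replicate numbers pair the samples. With the replicate number as a block, in which DB7 4 has no partner, 17 member genes were lower and 1 higher. In that fit 12.7% of all tested genes were lower and 10.9% higher.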
